A study of Mus musculus with 8 samples.

Results

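The genes described are 9 members of the epidermal growth factor (EGF) system, 6 ligands (Areg, Ereg, Btc, Hbegf, Tgfa and Nrg1) and 3 ERBB receptors (Egfr, Erbb2 and Erbb3). They were picked by symbol among the 41591 gene IDs of the count tables, and all 9 were found and passed the filter on low counts. EGF-like ligands are made as membrane-bound precursors and released by cell-surface proteases. They then bind ERBB receptor tyrosine kinases, which pair up and signal through RAS and ERK. In the ovulatory follicle, luteinizing hormone (LH) induces Areg, Ereg and Btc in mural granulosa cells, and their action on EGFR in cumulus and granulosa cells drives cumulus expansion and oocyte maturation.

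RNA sequencing was done on whole ovaries of C57BL/6 females aged about 3 weeks. The DKO group (4 libraries) carried a conditional double knockout of Insr and Igf1r, the genes of the insulin and insulin-like growth factor 1 receptors, and the labels do not name its Cre. The Control group (4 libraries) was wild type for both genes and carried the Pgr-Cre transgene, and these mice were littermates. Pgr-Cre places Cre under the progesterone receptor gene Pgr, which only some ovarian cell types express. Females of both groups received 4 IU of equine chorionic gonadotropin, then 5 IU of human chorionic gonadotropin (hCG, an LH substitute) 48 h later, and ovaries were taken 12 h after hCG. The design asks how ovarian transcripts around ovulation differ when both receptors are deleted.

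The libraries held 33145056 to 39257648 counts in genes, and 16870 genes were tested. Levels are CPM, counts divided by the library size after scaling with TMM factors. Fold changes are log2 of DKO over Control ± SE from edgeR's quasi-likelihood test, with p-values adjusted over all genes tested and a threshold of 0.05. Whole-gene counts of the targeted genes, which do not isolate a deleted exon, averaged 126 ± 16.8 CPM in DKO and 155 ± 10.3 CPM in Control for Insr (adjusted p = 0.226), and 214 ± 22.4 CPM in DKO and 236 ± 28.6 CPM in Control for Igf1r (adjusted p = 0.639; mean ± SD, n = 4 each). The first principal component, 38.3% of the variance, set DKO 1, DKO 2 and Control 1 apart from the other 5 libraries. The numbers in the sample titles fall into an earlier run, which these 3 libraries carry, and a later run, which the other 5 carry (DKO 3, DKO 4 and Control 2 to 4), and the labels do not say what the numbers are. DKO 2 and Control 1 also held oviduct RNA markers, with summed levels of 823 CPM in DKO 2 and 1265 CPM in Control 1, against 25.9 to 54.2 CPM in the others. The labels do not say that each library is a separate animal, so p-values measure the spread between these libraries. In whole ovaries, fewer cells of a type and less RNA per cell cannot be told apart.

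Of the 9 members, 0 passed the test, against a background of 1.26% of all genes tested, and 2 had an unadjusted p under 0.05 (Egfr and Tgfa), against 15.4% of all genes. DESeq2 called 1 member (Egfr) and 6.63% of all genes, limma-voom 0 members and 1.26% of all genes, and limma-voom with quality weights 2 members (Egfr and Erbb2) and 9.79% of all genes. The fitted change was below 0 for 7 members, and the median over the 9 was -0.43, against -0.02 over all genes. The members were chosen with earlier results of these data known, so counts and medians over them are a description. Egfr was the member whose DKO and Control libraries did not overlap, which held for 9.24% of all genes. The ligands Areg, Ereg and Btc had the widest spread among libraries, and their fitted changes of -1.42 to -1.05 came with SEs of 0.72 to 1.01.

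**Figure D1:**
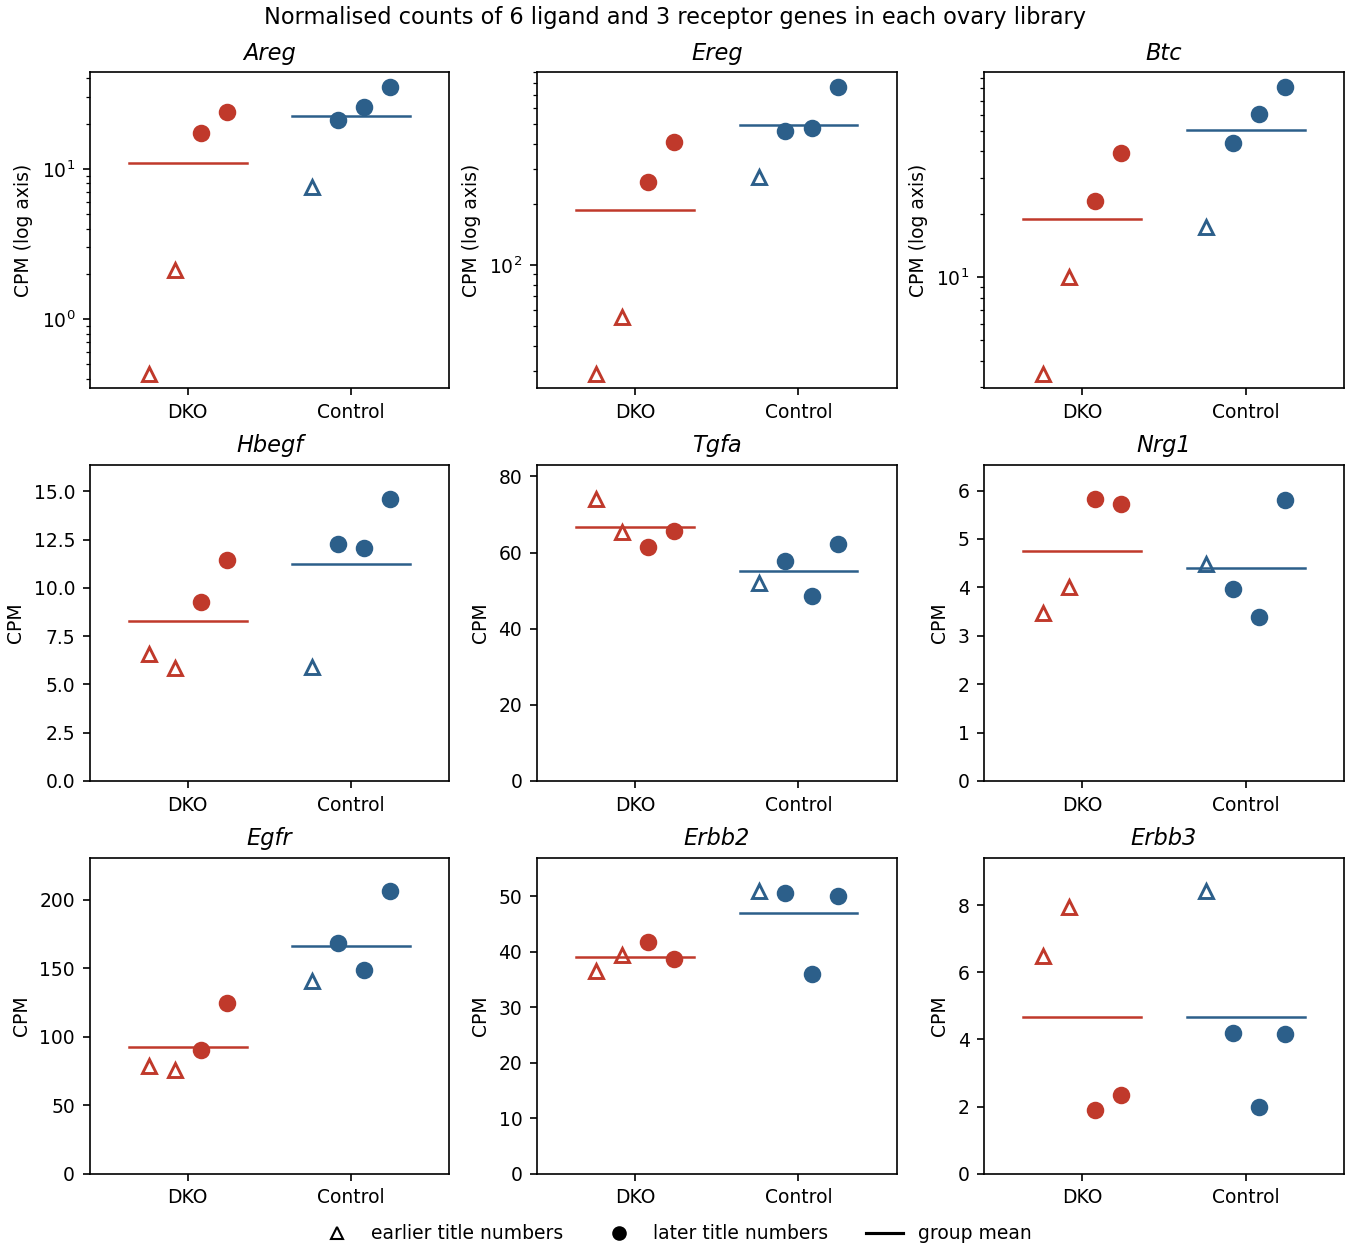
Level of each member (CPM) in every library, with DKO libraries left and Control libraries right in each panel. Horizontal lines are group means, triangles are libraries with the earlier title numbers, and circles are those with the later ones; the axes of Areg, Ereg and Btc are logarithmic. Egfr is the one panel in which the groups do not overlap, while Areg runs 81.8-fold between its lowest and highest library.

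Areg, Ereg and Btc lie next to each other on chromosome 5, together with a further ligand, Epgn (epigen), which was taken from the wider pathway. The span from Epgn to Btc covers 375.5 kb (chr5:91027517-91402994, GRCm38.p5) and holds 6 gene IDs of the count tables. Because the ligands of this cluster had profiles alike across libraries, the promoters of those with an entry in the RefSeq promoter table (GRCm38.p6) are shown. Each runs from 250 bases before to 50 bases after the annotated start, 5′ to 3′ on the gene's strand: Areg at chr5:91139349-91139648 (+), Epgn at chr5:91027267-91027566 (+) and Btc at chr5:91402945-91403244 (-). Capitals mark matches, on either strand, to 5 motifs: the cAMP response element (CRE) TGACGTCA, its shorter site TGACG, which a full CRE contains on both strands, the TATA box TATAAA, the AP-1 site TGANTCA and the SF-1/LRH-1 site AAGGTCA.
Areg: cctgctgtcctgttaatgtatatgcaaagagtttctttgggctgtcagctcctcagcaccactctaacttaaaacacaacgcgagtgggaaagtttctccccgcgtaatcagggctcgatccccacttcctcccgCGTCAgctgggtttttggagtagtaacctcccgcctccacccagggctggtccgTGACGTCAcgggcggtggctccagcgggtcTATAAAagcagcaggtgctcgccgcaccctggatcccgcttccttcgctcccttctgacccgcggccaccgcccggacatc
Epgn: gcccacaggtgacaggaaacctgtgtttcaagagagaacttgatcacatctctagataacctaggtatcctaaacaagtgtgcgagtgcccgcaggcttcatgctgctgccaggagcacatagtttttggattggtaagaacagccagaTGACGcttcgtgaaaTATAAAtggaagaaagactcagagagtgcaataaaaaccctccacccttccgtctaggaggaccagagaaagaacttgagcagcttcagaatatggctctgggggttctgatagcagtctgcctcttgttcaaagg
Btc: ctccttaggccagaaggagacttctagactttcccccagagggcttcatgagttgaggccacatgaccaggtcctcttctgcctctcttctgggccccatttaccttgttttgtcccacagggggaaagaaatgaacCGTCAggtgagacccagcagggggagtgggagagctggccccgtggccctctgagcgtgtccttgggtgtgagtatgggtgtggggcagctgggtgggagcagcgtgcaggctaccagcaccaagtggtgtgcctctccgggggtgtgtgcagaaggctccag

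Positions are those of a match's first base relative to the annotated start. The Areg promoter held a full CRE at -61, a TATA box at -31 and a further TGACG at -115. A full CRE was found in 1.79% of the 32851 mouse promoters of the same length, and TATAAA in 13.6%. The Epgn promoter held TGACG at -101 and TATAAA at -86, and the Btc promoter held TGACG at -113. TGACG was found in 20.8% of all promoters. Of the other members, Tgfa, Egfr and Erbb2 had entries; Erbb2 held TGACG at -171, and none of the 5 motifs was in the Tgfa or Egfr window. TGANTCA and AAGGTCA, found in 7.81% and 4.72% of all promoters, were in none of the 6 windows searched. These letter matches are a description of the windows and show no binding.

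Areg (gene ID 11839, chr5:91139599-91148432, + strand) encodes amphiregulin, a ligand of EGFR. It was at 0.432, 2.12, 17.3 and 23.8 CPM in DKO 1 to 4, against 7.63, 21.2, 26.0 and 35.3 CPM in Control 1 to 4. DKO 1 and DKO 2 were the lowest libraries and Control 1 was next, while DKO 3 and DKO 4 lay within or close to the range of Control 2 to 4, so the groups overlapped. The count in DKO 1 was 17, which allows 9.9 to 27.2 counts (95% exact Poisson interval, counting error only), against 284 counts in the lowest Control library. Areg averaged 10.9 ± 11.4 CPM in DKO and 22.5 ± 11.5 CPM in Control (SD, n = 4 each), and did not pass the test (log2 fold change -1.05 ± 1.01, 95% interval -3.38 to 1.28, adjusted p = 0.691). Among the 5 later-numbered libraries, means were 20.5 CPM in DKO (n = 2) and 27.5 CPM in Control (n = 3), a log2 fold change of -0.40. The log2 fold change over all libraries was -2.16 with limma-voom, and ran from -1.77 without DKO 4 to -0.65 without DKO 1.

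Ereg (gene ID 13874, chr5:91074617-91093649, + strand) encodes epiregulin, which binds EGFR and ERBB4. It was at 28.9, 55.2, 257 and 407 CPM in DKO 1 to 4, against 275, 464, 477 and 766 CPM in Control 1 to 4. DKO 1 to 3 were below every Control library, and DKO 4 was above Control 1. Means were 187 ± 179 CPM in DKO and 495 ± 203 CPM in Control (SD, n = 4 each), and the difference did not pass the test (-1.40 ± 0.77, 95% interval -3.18 to 0.37, adjusted p = 0.442). Within the later-numbered libraries the log2 fold change was -0.76, with means of 332 CPM in DKO and 569 CPM in Control, and leaving out 1 library gave -2.12 (without DKO 4) to -1.05 (without DKO 1). The noncoding gene Gm19610 overlaps the start of Ereg on the opposite strand, and counting was by strand. It was at 4.47, 6.60, 11.2 and 17.8 CPM in DKO, against 14.6, 24.2, 32.3 and 25.4 CPM in Control (-1.27 ± 0.41, adjusted p = 0.181).

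Btc (gene ID 12223, chr5:91357261-91402994, - strand) encodes betacellulin, also a ligand of EGFR and ERBB4. It was at 3.45, 10.1, 23.2 and 39.3 CPM in DKO 1 to 4, against 17.4, 43.9, 60.6 and 81.7 CPM in Control 1 to 4. All DKO libraries were below Control 2 to 4, but DKO 3 and DKO 4 were above Control 1. Btc averaged 19.0 ± 15.8 CPM in DKO and 50.9 ± 27.1 CPM in Control (SD, n = 4 each), without passing the test (-1.42 ± 0.72, 95% interval -3.08 to 0.23, adjusted p = 0.402). Within the later-numbered libraries the log2 fold change was -0.97, with means of 31.2 CPM in DKO and 62.0 CPM in Control, and leaving out 1 library gave -2.06 (without DKO 4) to -1.07 (without DKO 1).

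Epgn (gene ID 71920, chr5:91027517-91035212, + strand), whose product epigen also binds EGFR, was at 0.533, 1.27, 5.17 and 7.38 CPM in DKO 1 to 4, against 9.27, 12.9, 13.97 and 15.4 CPM in Control 1 to 4. Every DKO library was below every Control library, which held for 9.24% of all genes in one direction or the other. The log2 fold change of -1.85 ± 0.69 did not pass the test (adjusted p = 0.239). Epgn passed in 2 of the 21 alternative settings. These were limma-voom with quality weights, which called 9.79% of all genes, and a block for the run of title numbers, which called 3.12%.

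Across the 8 libraries the highest level was 81.8 times the lowest for Areg, 26.5 times for Ereg, 23.7 times for Btc and 28.8 times for Epgn. Among the 5 later-numbered libraries the same ratios were 2.04, 2.98, 3.52 and 2.97. In both groups these ligands were thus lower in the earlier run, but in Control that run is 1 library, Control 1, which also held oviduct markers. Ereg, for example, averaged 42.1 CPM in DKO 1 and DKO 2 and 332 CPM in DKO 3 and DKO 4. It was at 275 CPM in Control 1 and averaged 569 CPM in Control 2 to 4. With the run as a block, the log2 fold changes were -1.12 for Areg (adjusted p = 0.270), -1.49 for Ereg (adjusted p = 0.0902) and -1.12 for Btc (adjusted p = 0.109). The summed level of 9 oocyte markers moved the same way, at 144, 172, 454 and 285 CPM in DKO, against 140, 463, 346 and 409 CPM in Control. None of these markers was at 0 in any library, 8 of the 9 had a fold change below 0 and none passed the test. The sum of 9 macrophage and neutrophil markers was 56.6 to 73.3 CPM in DKO and 72.9 to 109 CPM in Control, 7 of the 8 tested were below 0 (median -0.90), and Ly6g was at 0 in 6 libraries. Of these 8, 3 had no overlap between groups, 4 had an unadjusted p under 0.05, edgeR called 0 and DESeq2 called 4, all lower. Over all genes tested, 53.1% were below 0, 9.24% had no overlap and 15.4% had an unadjusted p under 0.05. edgeR called 1.26% of all genes and DESeq2 6.63%. The part of either cell type in the ligand values was not tested.

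**Figure D2:**
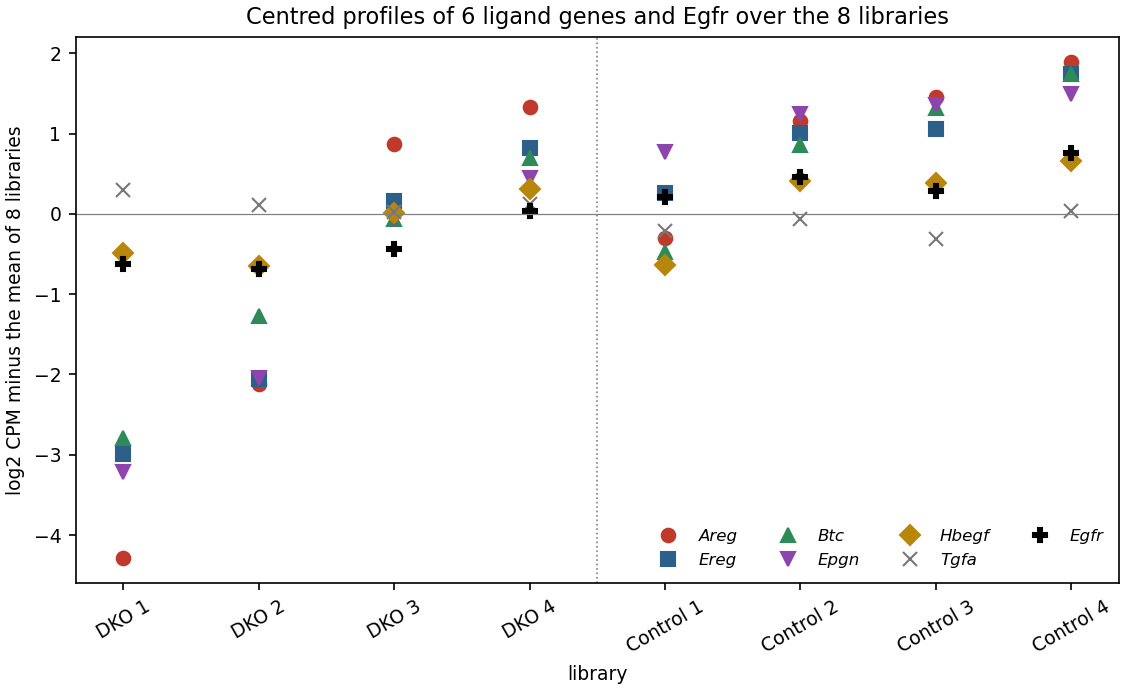
Log2 CPM of Areg, Ereg, Btc, Epgn, Hbegf, Tgfa and Egfr in each library, centred on each gene's mean over the 8 libraries, with DKO libraries left of Control libraries. DKO 1 and DKO 2 lie lowest for the 4 ligands of the chromosome 5 cluster, and Egfr spans less than any of these 4.

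The other ligands varied less. Hbegf (gene ID 15200, chromosome 18) encodes heparin-binding EGF-like growth factor, a ligand of EGFR and ERBB4. It was at 6.57, 5.86, 9.28 and 11.5 CPM in DKO 1 to 4, against 5.91, 12.3, 12.0 and 14.6 CPM in Control 1 to 4. All DKO libraries were below Control 2 to 4, and Control 1 was lower than 3 of the 4 DKO libraries. Hbegf did not pass the test (-0.43 ± 0.30, adjusted p = 0.549), and its log2 fold change within the later-numbered libraries was -0.31.

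Tgfa (gene ID 21802, chr6:86195227-86275743, + strand) encodes transforming growth factor alpha, a ligand of EGFR. Its levels were 74.1, 65.4, 61.4 and 65.7 CPM in DKO 1 to 4, against 52.1, 57.9, 48.5 and 62.2 CPM in Control 1 to 4. DKO 1, 2 and 4 were above every Control library, and DKO 3 was just below Control 4. Means were 66.6 ± 5.36 CPM in DKO and 55.2 ± 6.06 CPM in Control (SD, n = 4 each), and the log2 fold change of 0.27 ± 0.11 did not pass the test (adjusted p = 0.252). It was 0.20 within the later-numbered libraries and above 0 in all 21 alternatives.

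Nrg1 (gene ID 211323, chr8:31809465-32884820, - strand) encodes neuregulin 1, which binds ERBB3 and ERBB4 rather than EGFR. Its levels of 3.48, 4.00, 5.83 and 5.71 CPM in DKO 1 to 4 overlapped with 4.49, 3.96, 3.38 and 5.80 CPM in Control 1 to 4. The log2 fold change was 0.11 ± 0.26 (95% interval -0.46 to 0.68, adjusted p = 0.882).

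Egfr (gene ID 13649, chr11:16752203-16913907, + strand) encodes the receptor shared by Areg, Ereg, Btc, Hbegf and Tgfa. It was at 78.8, 75.9, 90.1 and 125 CPM in DKO 1 to 4, against 141, 168, 148 and 206 CPM in Control 1 to 4. Every DKO library was below every Control library, including DKO 4, the highest of its group, and Control 1, the lowest of its own. Means were 92.3 ± 22.3 CPM in DKO and 166 ± 29.1 CPM in Control (SD, n = 4 each), 44.4% lower in DKO. The log2 fold change was -0.85 ± 0.18 (95% interval -1.24 to -0.45), and its adjusted p of 0.0562 missed the threshold.

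Egfr lay so close to the threshold that the call depended on the setting. It passed in 9 of 21 alternatives. Among these were no filter on low counts (adjusted p = 0.0356, with 0.822% of all genes called), a filter of at least 1 CPM in 4 libraries (adjusted p = 0.0488, 1.51%), library size only (adjusted p = 0.0399, 1.26%) and upper quartile factors (adjusted p = 0.0411, 1.32%). A block for the run of title numbers gave an adjusted p of 0.0264 (3.12% of all genes called), and the fit without DKO 4 gave 0.0344 (0.657%). Within the later-numbered libraries the log2 fold change was -0.68 ± 0.20 (adjusted p = 0.198), with means of 107 CPM in DKO (n = 2) and 174 CPM in Control (n = 3). Leaving out 1 library at a time gave -1.02 to -0.72, and leaving out DKO 2 and Control 1, the libraries with oviduct markers, gave -0.82 (adjusted p = 0.110). The summed level of granulosa cell markers was 3466 to 4632 CPM in DKO and 3127 to 4239 CPM in Control, and that of smooth muscle markers 1538 to 2611 CPM in DKO and 1982 to 3821 CPM in Control. That of endothelial markers was 480 to 697 CPM in DKO and 465 to 550 CPM in Control. No marker of these 3 lists passed the test. All 6 smooth muscle markers were below 0 (median -0.60), against 53.1% of all genes, and 3 had an unadjusted p under 0.05. All 7 endothelial markers tested were above 0 (median 0.37), and 4 had an unadjusted p under 0.05. Over all genes, 15.4% had an unadjusted p under 0.05. Quality weights called 4 endothelial and 0 smooth muscle markers, against 9.79% of all genes. The part of these cell types in the Egfr values was not tested.

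**Figure D3:**
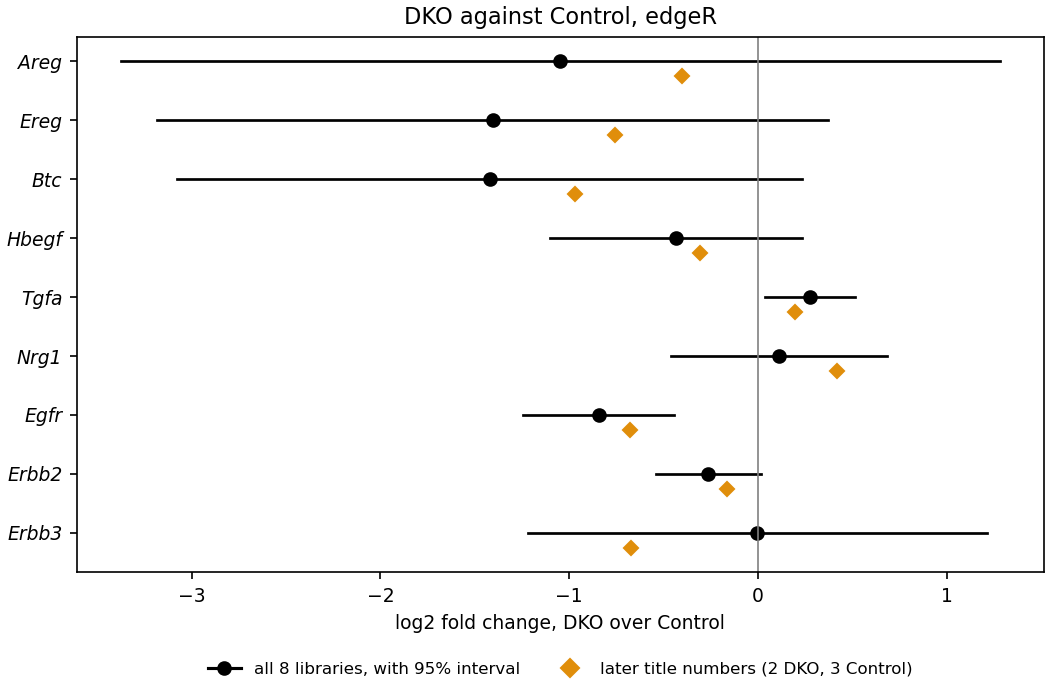
Log2 fold change of each member, DKO over Control, with 95% intervals from the quasi-likelihood fit over all 8 libraries, and the value within the later-numbered libraries beside it. The interval of Egfr, -1.24 to -0.45, and that of Tgfa, 0.03 to 0.51, lie to one side of 0 before adjustment for the number of genes.

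Erbb2 (gene ID 13866, chr11:98412484-98437716, + strand) encodes a receptor with no known ligand of its own that pairs with the other ERBB receptors. It was at 36.6, 39.4, 41.7 and 38.7 CPM in DKO 1 to 4, against 50.9, 50.6, 36.1 and 50.1 CPM in Control 1 to 4. Control 3 was the lowest of all 8 libraries, and the other 3 Control libraries were above every DKO library. Means were 39.1 ± 2.12 CPM in DKO and 46.9 ± 7.25 CPM in Control (SD, n = 4 each), and the difference did not pass the test (-0.26 ± 0.12, adjusted p = 0.355). Without Control 3 it did (-0.37, adjusted p = 0.0466), in a fit that called 2.95% of all genes.

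Erbb3 (gene ID 13867, chr10:128569368-128589501, - strand) encodes a receptor with a weak kinase domain that binds neuregulins and signals mainly in pairs with ERBB2. It was at 6.47, 7.95, 1.90 and 2.35 CPM in DKO 1 to 4, against 8.41, 4.18, 1.98 and 4.15 CPM in Control 1 to 4. DKO 1, DKO 2 and Control 1 were the 3 highest, so its order followed the run of title numbers. The same 3 libraries were the lowest for Areg and Btc. For Ereg and Epgn, DKO 1 and DKO 2 were the lowest and DKO 3 came next. Group means of Erbb3 were 4.67 ± 3.00 CPM in DKO and 4.68 ± 2.69 CPM in Control (SD, n = 4 each). The log2 fold change was -0.0041 ± 0.54 (95% interval -1.22 to 1.21, adjusted p = 0.999).

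Ovgp1, the oviductal glycoprotein gene and the most abundant of the 8 oviduct markers, was at 724 CPM in DKO 2 and 1150 CPM in Control 1, against 2.51 to 23.8 CPM in the other 6 libraries. Of these markers 7 were tested and none passed, and Dynlrb2 was at 0 in 3 libraries. DKO 1 had an oviduct sum of 26.4 CPM. The summed level of 10 epithelial and ovarian surface markers was 269, 596, 223 and 229 CPM in DKO 1 to 4, against 1015, 200.6, 190.8 and 219.8 CPM in Control 1 to 4, so the 3 libraries highest in Erbb3 were also highest in these markers. Of the 10, 9 were below 0, none passed and none was at 0 in any library, and the part of epithelial cells in the Erbb3 values was not tested. Without DKO 2 and Control 1 the log2 fold change of Erbb3 was 0.075 (adjusted p = 0.972), and within the later-numbered libraries it was -0.67.

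Levels of different genes were compared after division by exon length, as CPM per kilobase of the counted exons. This length covers all counted exons of a gene, so the order is approximate where the transcripts made are shorter. In DKO, Ereg averaged 45.2 ± 43.2, Tgfa 14.7 ± 1.18, Egfr 14.3 ± 3.47, Areg 8.97 ± 9.42, Erbb2 7.82 ± 0.424 and Btc 6.61 ± 5.50 CPM per kilobase (SD, n = 4). In Control the order was Ereg 120 ± 49.0, Egfr 25.8 ± 4.53, Areg 18.5 ± 9.49, Btc 17.7 ± 9.43, Tgfa 12.1 ± 1.33 and Erbb2 9.39 ± 1.45 CPM per kilobase. Hbegf (3.49 ± 1.08 in DKO, 4.72 ± 1.57 in Control), Erbb3 (1.16 in both groups) and Nrg1 (0.313 ± 0.0785 in DKO, 0.290 ± 0.0679 in Control) came last. Neighbours in this order had overlapping ranges in DKO down to Hbegf and Epgn, and only Erbb3 and Nrg1 were apart. In Control, Ereg was above Egfr without overlap, Egfr, Areg and Btc each overlapped with the next, and Tgfa was above Erbb2 without overlap.

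**Figure D4:**
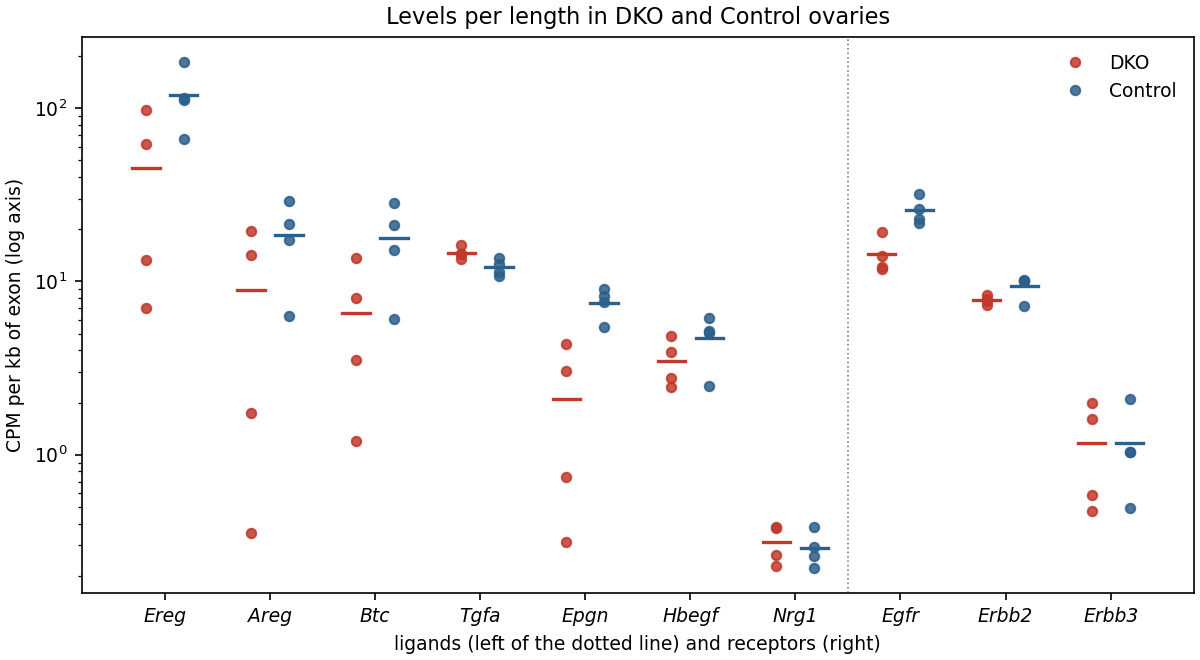
Level per kilobase of exon (CPM per kilobase, logarithmic axis) of the 9 members and Epgn in each library, with DKO left of Control for each gene. Ereg is the highest gene in every Control library, and in DKO 1 and DKO 2 it lies below Tgfa.

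The make-up of the ligand pool differed between libraries in the same way. On the per-kilobase scale, Ereg made up 24.8%, 36.6%, 59.0% and 63.3% of the sum of the 6 member ligands and Epgn in DKO 1 to 4, against 67.5%, 65.7%, 63.4% and 68.1% in Control 1 to 4. Tgfa made up 57.9%, 39.5%, 12.8% and 9.28% in DKO, against 11.6%, 7.46%, 5.87% and 5.03% in Control. In DKO 1 and DKO 2 Tgfa was thus the highest ligand on this scale, while in DKO 3 and DKO 4 the pool was closer to that of Control libraries. The 3 receptors together summed to 21.2 to 27.7 CPM per kilobase in DKO, against 30.8 to 43.1 in Control, without overlap. Egfr made up 54.4% to 69.9% of that sum in DKO and 64.1% to 74.9% in Control. These shares and sums are descriptions, with no test.

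The genes with profiles most like each member were taken over 11582 genes of at least 5 CPM, by the mean absolute difference of centred log2 CPM over the 8 libraries. For Areg these included Tnfaip6 (0.315) and Ptgs2 (0.335). For Ereg they were its neighbour Epgn (0.267), Btc (0.314) and Tnfaip6 (0.320), and for Btc they were Zfp804a (0.139), Rdh10 (0.278) and F3 (0.287). Egfr was closest to Tead1 (0.0689), Zdhhc23 (0.0985) and Tsc22d3 (0.112). Of these, Zdhhc23 (-0.86 ± 0.17, adjusted p = 0.0459) and Tsc22d3 (-0.94 ± 0.18, adjusted p = 0.0451) passed the threshold and Tead1 had an adjusted p of 0.0576; a lower level in DKO follows from choosing genes by likeness to Egfr, so these values are a description. Hbegf was closest to Tmem45a (0.0944), Pparg (0.0964) and Pamr1 (0.112), and Erbb3 to Glb1l2 (0.244), Zbtb37 (0.269) and Dixdc1 (0.271). Tgfa, Nrg1 and Erbb2 varied too little over the libraries to be compared in this way (SD of log2 CPM at most 0.5).

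The rest of the pathway was followed in 7 lists of 97 genes. Of these, 93 were tested and 1 passed, against 1.26% of all genes tested. Over all genes tested, 53.1% were below 0, 9.24% had no overlap between groups, 15.4% had an unadjusted p under 0.05 and DESeq2 called 6.63%. The lists were chosen with earlier results of these data known, so counts over a list are a description. The gene that passed was Runx1, a transcription factor that LH induces in granulosa cells. Its levels were 166.5, 212, 194 and 270.3 CPM in DKO 1 to 4, against 321, 337, 372 and 359 CPM in Control 1 to 4, with no overlap. It fell by 0.72 ± 0.15 on the log2 scale (adjusted p = 0.0498). In its list, of the LH receptor, cAMP signalling and transcription factors upstream of the ligands, 10 of 16 genes were below 0 (median -0.05). Of the 16, 5 had no overlap between groups, 6 had an unadjusted p under 0.05, and DESeq2 called 4.

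Without DKO 1, DKO 2 or DKO 3, or without any 1 of the 4 Control libraries, Runx1 did not pass (adjusted p = 0.0565 to 0.178), and within the later-numbered libraries its log2 fold change was -0.60 (adjusted p = 0.201). Lhcgr, the LH receptor gene of the same list, was at 573, 865, 723 and 766 CPM in DKO, against 180, 292, 509 and 360 CPM in Control, with no overlap. Its log2 fold change of 1.13 ± 0.28 had an adjusted p of 0.0893. Lhcgr was chosen after its values were seen.

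The medians of ligand release and signal transduction genes were close to that of all genes. Of 13 genes of ligand release, 0 passed and 3 had an unadjusted p under 0.05, against 15.4% of all genes. DESeq2 called 2, against 6.63% of all genes, 7 were below 0 and the median was -0.01. Adam9, a membrane protease and the lowest adjusted p of the list, averaged 136 ± 18.2 CPM in DKO and 205 ± 34.8 CPM in Control (-0.59 ± 0.15, adjusted p = 0.0854), and Adam17, the main sheddase of Areg, Ereg, Hbegf and Tgfa, had 0.02 ± 0.12 (adjusted p = 0.965). Of 20 adaptor and RAS-ERK cascade genes, 0 passed and 4 had an unadjusted p under 0.05, against 15.4% of all genes. DESeq2 called 0, 10 were below 0 and the median was 0.0099. Braf, a RAF kinase, had the lowest adjusted p there (-0.37 ± 0.12, adjusted p = 0.179).

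Of 19 tested inhibitors and feedback genes, 17 were below 0 (median -0.36), against 53.1% of all genes tested. None passed with edgeR, and 4 had an unadjusted p under 0.05, against 15.4% of all genes. DESeq2 called 2, against 6.63% of all genes. Within the later-numbered libraries 13 of 19 were below 0 (median -0.24). Lrig1, which promotes degradation of ERBB receptors, averaged 83.7 ± 10.3 CPM in DKO and 112 ± 10.1 CPM in Control without overlap (-0.42 ± 0.11, adjusted p = 0.112).

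All 14 ERK-induced genes were below 0 (median -0.66), against 53.1% of all genes. With edgeR 0 passed, and 2 had an unadjusted p under 0.05, against 15.4% of all genes. DESeq2 called 2, against 6.63% of all genes. The list was chosen with earlier results of these data known, so these counts are a description. Fosl1, an AP-1 transcription factor gene, was at 2.64, 4.98, 11.02 and 14.3 CPM in DKO 1 to 4, against 18.7, 26.7, 39.3 and 34.8 CPM in Control 1 to 4. Every DKO library was below every Control library (-1.86 ± 0.49, adjusted p = 0.120). The summed level of this list was 401, 474, 1020 and 1081 CPM in DKO, against 510, 1088, 1562 and 1482 CPM in Control, so it was lowest in DKO 1, DKO 2 and Control 1. Within the later-numbered libraries 11 of 14 were below 0 (median -0.32) and Fosl1 passed (-1.39), in a fit that called 0.982% of all genes.

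Of 7 tested genes that EGF-like ligands induce in cumulus cells, 7 were below 0 (median -1.02), against 53.1% of all genes. The highest was at -0.0068. None passed with edgeR or DESeq2, and 0 had an unadjusted p under 0.05. Il6, the interleukin 6 gene, was at 1.07, 2.09, 8.60 and 10.7 CPM in DKO, against 4.19, 13.7, 33.8 and 19.98 CPM in Control (-1.67 ± 0.82, adjusted p = 0.386). Within the later-numbered libraries 5 of 7 were below 0 (median -0.60). Of the other ERBB ligands and ERBB4, 4 of 6 genes were tested, 3 were below 0 (median -0.31) and 0 passed, while Epgn had an unadjusted p of 0.0257 and DESeq2 called 0. Errfi1, an ERBB inhibitor, and Erbb4 and Ier3 are among the listed genes with exons on several sequences of the annotation, and counts of such genes can be incomplete.

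**Figure D5:**
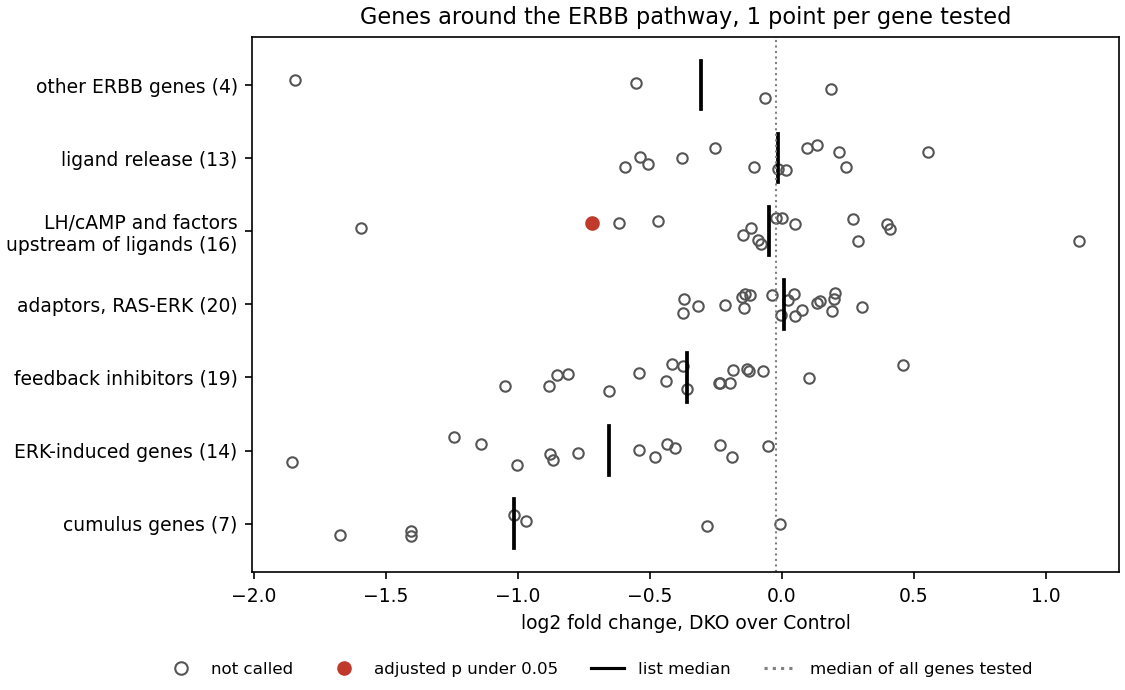
Log2 fold change, DKO over Control, of each tested gene of the 7 pathway lists, 1 point per gene, with a bar at the median of each list and a dotted line at the median of all genes tested, -0.02. The filled point is Runx1. All 14 ERK-induced genes and all 7 tested cumulus genes lie below 0, while the ligand release and RAS-ERK lists are spread around it. The lists were chosen with earlier results of these data known.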

How the data were processed

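For each library the authors deposited a table of raw counts. Per the file headers, featureCounts (Subread 1.5.2) counted reads on RefSeq exons of GRCm38.p5 by gene ID, in its reverse-stranded mode. STAR 2.4.2a, Trimmomatic (0.33, 0.36), bcl2fastq 2.17.1.14, edgeR 3.12.0 and build GRCm38.p3 are further entries in the submitters' processing notes. Symbols came from a RefSeq table of GRCm38.p6, which matched 40290 of 41591 IDs (96.9%), and coordinates of genes are those of the count tables. Groups and replicate numbers came from the sample descriptions, and no library was left out. Totals per library ran from 33145056 to 39257648 counts, and intervals on counts cover counting error only. Libraries of a group differed by more than sampling noise (reduced chi-square 22.9 to 129.3), so none was taken as a repeat of another. All 8 were treated as replicates, though this spread cannot show that each is a separate animal.

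Tables were handled in Python 3.11.15 and tested in R 4.3.3 with DESeq2 1.42.0, limma 3.58.1 and edgeR 4.0.16. Genes were kept by filterByExpr (16870) and scaled by TMM factors of 0.943 to 1.06. All p-values are from edgeR's robust quasi-likelihood F-test over the whole table, two-sided, with Benjamini-Hochberg adjustment, unless another tool is named. The SE is the log2 fold change divided by the square root of F. The script was tested on simulated counts. The members and the lists were chosen with earlier results of these data known. Named genes are all members, called members of each list or the one with the smallest adjusted p, the 3 genes most like each member with an SD of log2 CPM above 0.5, and Insr and Igf1r. Adam17, Gm19610, Lhcgr, Pgr and Prkaca were added after their values were seen. Some items that this rule names are not reported here. Alternatives covered scaling, filters, DESeq2, limma-voom, dispersions, blocks, the later-numbered libraries alone and each library left out. Added after seeing the data was a fit without DKO 2 and Control 1.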

Additional observations from a re-analysis of the deposited data

Results flagged for a closer look

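Erbb2 in Control 3 stood apart from the rest of its group, at 36.1 CPM against 50.1 to 50.9 CPM in the other 3 Control libraries. The gap to its nearest neighbour was 0.947 of the range of the group, above Dixon's 95% critical value for 4 values. This was 1 of 18 groups examined, 9 members in DKO and in Control, and chance marks about 1 group in 20. The 4 DKO libraries lay between 36.6 and 41.7 CPM. No other library stood apart in this way for any member.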

How the results depend on the processing

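Of 9 members 0 passed in the reported fit. The count was 1 (Egfr) with library size only, upper quartile factors, no filter, a filter of at least 1 CPM in 4 libraries, DESeq2 and the block for the run of title numbers. It was 2 with quality weights (Egfr and Erbb2) and 0 to 1 with 1 library left out, where Egfr passed without DKO 4 and Erbb2 without Control 3. Over all genes 212 passed, against 1107 with DESeq2, 1651 with quality weights, 526 with the title-number block and 97 without DKO 2 and Control 1. With 1 library left out the count ran from 2 (without Control 2) to 506 (without Control 3). It was also 9 without DKO 3, 27 without Control 4, 66 without DKO 2, 78 without DKO 1 and 113 without DKO 4. Of the pathway genes 1 passed, against 2 with library size only, upper quartile factors and no filter. The count was 10 with DESeq2, 12 with quality weights, 7 with the title-number block, 0 with non-robust dispersions, 0 without DKO 2 and Control 1, and 0 to 4 with 1 library left out.

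Deviations of same-numbered replicates from their group means had correlations of 0.156, -0.359, 0.312 and 0.468. Of the 8 libraries, 5 correlated best with their own number. These mixed values do not settle whether the numbers pair the libraries, and the reported fit used no pairing. With the replicate block 2 members passed (Egfr, adjusted p = 0.00979, and Btc, adjusted p = 0.0207), as did 743 of all genes and 18 pathway genes. The sign held in all 21 alternatives for each member except Erbb3. Its change of -0.0041 was 0.0094 with upper quartile factors and 0.075 without DKO 2 and Control 1. With 1 library left out it ran from -0.38 to 0.46, above 0 without Control 1 (0.46), DKO 3 (0.26) or DKO 4 (0.22). The cause was not tested. Depth limits the value of Areg in DKO 1, which rests on 17 counts.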
